A study of Anopheles gambiae with 4 samples.

Results

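The X chromosome of Anopheles gambiae was described here through the probe sets of an Affymetrix Plasmodium/Anopheles array whose ID begins with Ag.X., where the field after Ag. is read as the chromosome. There were 1403 of them among the 16884 probe sets with an Ag. ID, or 8.31%, in a table of 17965 probe sets. A probe set is a group of short probes for one transcript, and its signal intensity is reported in arbitrary linear units. The reference was the 9101 probe sets with the field 2L, 3L or 3R, which are arms of the autosomes. The 4442 probe sets of the arm 2R were kept as a separate comparison. The rule used the IDs alone and no measured value.

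RNA came from the fat bodies of adult females of the strain Yaounde, 3 to 4 days old, kept on a glucose solution. Fat body here means the abdomen after removal of the midgut, the ovaries and the malpighian tubules, and 20 to 30 of them were pooled per batch. All females were chilled and injected into the thorax with 69 nL of liquid, and tissue was taken after a rest of 18 h. Of 4 single-channel arrays, 2 came from females that received a CpG oligodeoxynucleotide (CpG-ODN) at 0.1 mM in elution buffer, and 2 from females that received the buffer alone. No uninjected group was analysed here, so injury is shared by both groups. The titles number the arrays of each group as replicates 1 and 2, from experiments that the series text calls independent. The p-values measure only the spread between these arrays.

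In Anopheles gambiae, females carry a pair of X chromosomes and males carry a single X and a Y. In males the X is transcribed more strongly, which brings its output near that of the autosomes, a process called dosage compensation. Females have the same number of copies of the X and of each autosome. In insects the fat body does the work that liver and fat do in vertebrates, and it releases immune proteins into the haemolymph. Oligodeoxynucleotides with an unmethylated CG step are used in vertebrates as immune stimulants.

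The oligonucleotide that separates the groups is shown because it is the only agent that differed between them. Titles and protocols call it 0604 and the sample descriptions 0640. It is 20 nt long and synthetic, and the capitals mark its 1 CG step.
ODN 0604: tccatgaCGttcctgatgct

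No table used here pairs Ag. IDs with genes, so the probe sets are identified by ID only, and no gene is named. The labelled tissue could not be checked against its marker genes for the same reason. The median signal of all Ag. probe sets lay between 67.2 and 70.7 units on the 4 arrays. A background level was set per array as the 95th percentile of 24 control probe sets, for artificial tags or for Plasmodium actin and Gapdh. It stood at 80.3 and 53.2 units on the CpG-ODN arrays of replicates 1 and 2, and at 68.9 and 57.1 on the buffer arrays. The controls themselves had a mean log2 signal between 4.14 and 4.36.

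X probe sets were about as bright in the middle of their distribution as autosomal ones. Their median signal was 73.4 and 66.6 units on the CpG-ODN arrays of replicates 1 and 2. On the buffer arrays of replicates 1 and 2 it was 73.0 and 70.9 units. The corresponding medians of the 2L, 3L and 3R probe sets were 72.5 and 71.2 units for CpG-ODN replicates 1 and 2, against 73.5 and 74.4 for buffer. The X median was thus the higher one on a single array, the CpG-ODN array of replicate 1. In log2 units, X minus autosomes was −0.040 ± 0.053 (SD, n = 4), so the difference was smaller than its spread over the arrays. Its sign depended on the arm: it was −0.084 ± 0.052 (SD, n = 4) against 2L and −0.048 ± 0.062 (SD, n = 4) against 3R, but 0.027 ± 0.052 (SD, n = 4) against 3L. Against 2R it was −0.13 ± 0.058 (SD, n = 4). Brightness also depends on how well each probe binds, so these are comparisons of distributions over many probe sets and not of transcript numbers. No test was made over probe sets.

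The share of X probe sets with a signal above background was also near that of the autosomes. On all 4 arrays, 645 X probe sets, or 46.0%, lay above the background level, against 45.1% of the autosomal ones. The arms ranged from 42.7% for 3L to 46.4% for 2L, with 47.7% for 2R, so the X lay inside the range of the arms. The difference between X and autosomes was 0.92 percentage points, and without the CpG-ODN array of replicate 1 it was 0.044. A further 505 X probe sets, or 36.0%, were above background on no array, against 35.3% of the autosomal ones. The remaining 253 X probe sets were above it on some arrays only. Per array, the share of X probe sets above background was 46.8% and 60.9% for CpG-ODN replicates 1 and 2, against 52.7% and 60.8% for buffer. The lowest share was on the array with the highest background level.

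Where the X differed was the spread of brightness: it held fewer very dim and fewer very bright probe sets. The interquartile range of log2 signal was 1.82 ± 0.02 (SD, n = 4 arrays) over X probe sets and 1.96 ± 0.06 (SD, n = 4) over autosomal ones. The difference was −0.10 and −0.20 on the CpG-ODN arrays of replicates 1 and 2, and −0.07 and −0.18 on the buffer arrays, with a mean of −0.14 ± 0.06 (SD, n = 4). It was negative on all 4 arrays against each of 2L, 3L, 3R and 2R. Against the single arms the mean difference ran from −0.10 for 2L to −0.20 for 3R. It was wider on the replicate 2 arrays than on the replicate 1 arrays in both groups.

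Both ends of the distribution contributed. At the 10th percentile of brightness, X probe sets exceeded autosomal ones by 0.16 ± 0.03 log2 (SD, n = 4). The X value was the higher one against each of the 4 arms on every array. At the 25th percentile the difference had shrunk to 0.05 ± 0.02 (SD, n = 4), and against 2L it was −0.0011 ± 0.02 (SD, n = 4). Above the median the order turned. The X value was lower than the autosomal one by a mean difference of −0.082 at the 75th percentile, where it stood at 0.0030 against 3L, −0.27 ± 0.07 (SD, n = 4) at the 90th and −0.43 ± 0.09 (SD, n = 4) at the 99th. At the 90th, 95th and 99th percentiles it was below each of the 4 arms on every array.

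**Figure D1:**
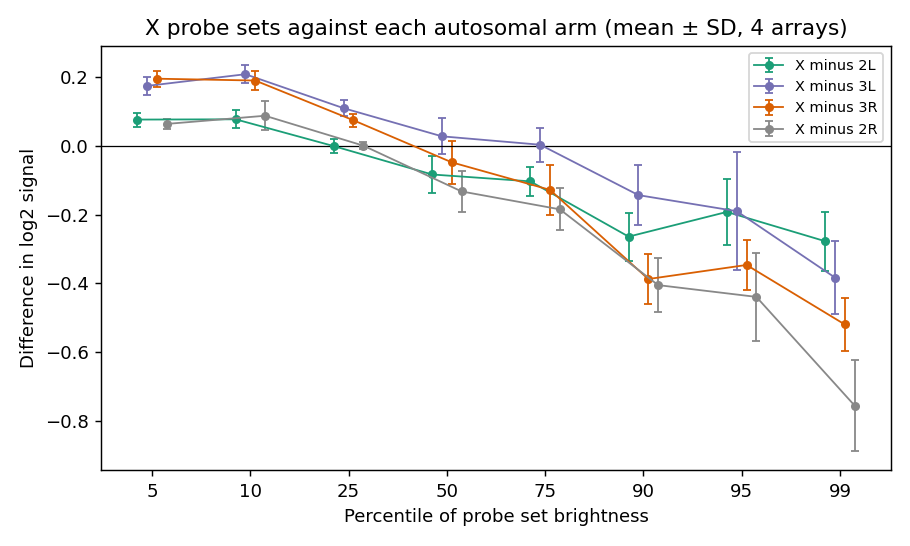
Difference in log2 signal between X probe sets and those of each autosomal arm (vertical axis) at 8 percentiles of brightness (horizontal axis). Points are means and bars are the SD over 4 arrays. The curves start above 0 at the dim end. Those against 2L, 3R and 2R lie below 0 from the median on, and that against 3L from the 90th percentile on. At the 90th percentile the mean difference from 2L, 3L and 3R together was −0.27.

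Sorted with all Ag. probe sets into 10 groups of equal size by mean log2 signal, the X had its lowest share in the dimmest group. That group, up to a signal of 24.1 units, held 93 X probe sets, or 6.63%, against 8.99% of the autosomal ones. The single arms ranged from 7.68% for 2R to 10.2% for 3L. The brightest group, from a signal of 376 units, held 124 X probe sets, or 8.84%. The autosomes had 10.7% there, and the single arms ranged from 9.86% for 3L to 11.8% for 2R. The 4 middle groups from the third to the sixth each held more of the X than of the autosomes, with 10.8%, 11.5%, 10.8% and 11.05% of X probe sets, and so did the eighth with 11.3%.

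**Figure D2:**
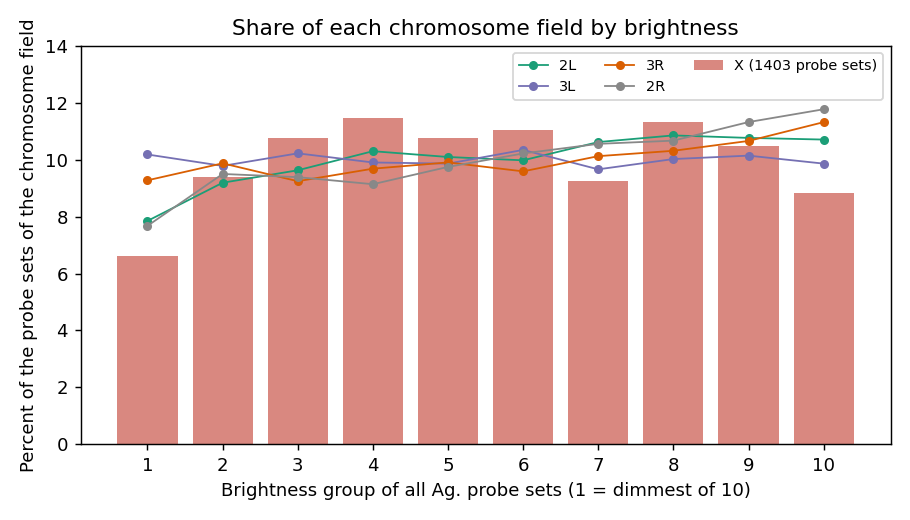
Percent of the probe sets of each chromosome field (vertical axis) in each of 10 equal groups of all Ag. probe sets by mean brightness (horizontal axis, dimmest first). Bars are the X and lines are the arms; the X bars are lowest in the dimmest group, at 6.63%, and stand at 8.84% in the brightest.

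The X carried a smaller share of the array's signal than of its probe sets. X probe sets made up 8.31% of the Ag. probe sets and 7.53% and 7.23% of their summed signal on the CpG-ODN arrays of replicates 1 and 2. On the buffer arrays the share was 7.61% and 7.33%. It was below 8.31% on each array, and higher in replicate 1 than in replicate 2 in both groups. Probe sets with the field UNKN, given no chromosome in the ID, had a wider gap, with 11.5% of probe sets and 5.20% to 5.52% of the signal. Each of 2L, 3L, 3R and 2R had more of the signal than of the probe sets on every array. For 3L these were 14.9% to 15.2% and 14.8%. Of the 169 probe sets in the brightest 1% of the array, 10 were on the X, which is 0.713% of X probe sets. The corresponding share was 1.08% for the autosomes and 0.992%, 1.08%, 1.16% and 1.22% for 2L, 3L, 3R and 2R. A mean signal above 1000 units was reached by 53 X probe sets, or 3.78%, against 4.11% of the autosomal ones.

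The 5 brightest X probe sets varied little between arrays, with a highest signal at most 1.13 times the lowest, in Ag.X.68.6_a_at. Ag.X.75.0_CDS_at had signals of 9066 and 9150 with CpG-ODN against 9161 and 9120 with buffer. Its highest value was 1.01 times its lowest, and the groups overlapped. It ranked 40 among all Ag. probe sets. Ag.X.83.0_CDS_a_at read 8299 and 9203 with CpG-ODN against 8400 and 9010 with buffer, and differed by replicate number more than by treatment. Ag.X.68.6_a_at read 8064 and 7500 with CpG-ODN against 8464 and 7924 with buffer, and Ag.X.69.0_CDS_at read 7497 and 7726 against 7790 and 8055. The fifth, Ag.X.72.0_CDS_a_at, had 7362 and 7425 units with CpG-ODN against 7247 and 7339 with buffer. For the last 2 of these the groups did not overlap, yet the log2 change was −0.058 and 0.020. None of the 5 passed the limma test described below, with an adjusted p of 0.9999 for each. A second probe set for the ID stem of Ag.X.83.0_CDS_a_at ranked sixth on the X, at 7033 and 6500 units with CpG-ODN against 7026 and 6262 with buffer.

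The brightest X probe sets also had neighbouring ID numbers. The third field of the ID is a number from 1 to 1842 on the X, and no source used here says what it stands for. The 8 brightest X probe sets had numbers between 68 and 88, a window noticed after their values were seen. It held 31 probe sets, those 8 included, with a median signal of 1845 units, and 28 of the 31 exceeded background on every array. Since the 8 brightest set its limits, the high median of the window was in part fixed beforehand. The 82 probe sets with lower numbers had a median of 79.3 units, and the 155 with numbers from 89 to 199 a median of 214. More widely, higher ID numbers went with lower brightness on the X and on the autosomes, though not in a steady fall. Across probe sets Spearman's rho between number and mean log2 signal was −0.41 on the X (n = 1403) and −0.39 on the autosomes (n = 9101), which share arrays and scaling. X probe sets with numbers under 200 had a median of 198 units, those from 200 to 399 had 112, and those from 800 to 999 had 46.4. From 1000 up the median was higher again, at 57.5 units, and 36.1% of those probe sets exceeded background on every array, against 17.3% of those from 800 to 999. On the autosomes the order was not the same at the low end: the median was 136 units under 200 and 281 from 200 to 399.

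The part of the transcript named in the ID went with brightness on the X as it did on the autosomes. IDs with CDS, for coding sequence, made up 79.7% of the X and 82.6% of the autosomal probe sets. Their median signal was 66.0 units on the X and 67.4 on the autosomes. The 68 X probe sets with UTR, for untranslated region, had a median of 249 units against 242 on the autosomes, and 79.4% of these exceeded background on every array. The 217 X probe sets with neither word had a median of 95 units against 96.7. The medians of these classes on the X and the autosomes thus lay close together.

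By class, the interquartile range of the X was narrower among CDS probe sets but not among the others, a contrast that was not tested. Among CDS probe sets, the interquartile range on the X was smaller by a difference of −0.14 ± 0.06 log2 (SD, n = 4), and the 90th percentile differed by −0.32 ± 0.07 (SD, n = 4). Among UTR probe sets the interquartile range was wider on the X by 0.14 ± 0.04 (SD, n = 4). The sign there turned against 3R, at −0.16, and against 2R, at −0.31. In the class with neither word it differed by −0.015 ± 0.071 (SD, n = 4), less than its spread. At the dim end, the 10th percentile of the X was higher by 0.16 ± 0.026 (SD, n = 4) in the CDS class and by 0.16 ± 0.093 (SD, n = 4) in the class with neither word. In the UTR class it was higher by 0.075 ± 0.090 (SD, n = 4), less than its spread, and it was negative against 2L and 2R. The bright end also varied with the suffix. IDs ending in _a_at were held by 311 X probe sets, and their 90th percentile was above the autosomal one by 0.23 ± 0.045 (SD, n = 4), with 0.024 against 3L. For IDs with the plain ending _at, held by 1026 X probe sets, it was lower by a difference of −0.20 ± 0.085 (SD, n = 4), but 0.044 against 3L.

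Probe sets that share an ID stem give a check of the readings within the X. The 1403 X probe sets came from 1242 stems, of which 141 had more than 1 probe set and 122 had exactly 2. Over these 122 pairs Pearson's r of the mean log2 signal was 0.812, against 0.737 for 788 autosomal pairs. The median absolute difference within a pair was 0.72 log2 on the X and 0.85 on the autosomes. More than 4-fold lay between the members of 13 X pairs, or 10.7%, against 9.01% of the autosomal ones. In the 71 X pairs with both members in the tested set, r of the change with CpG-ODN was 0.763, against 0.591 over 447 autosomal pairs. For the difference between replicates it was 0.518 on the X and 0.573 on the autosomes. These are descriptions, since pair members share arrays and often a transcript. How far a few pairs with wide changes set the values of r was not tested.

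Injection of CpG-ODN was set against injection of buffer to find transcripts that respond to it within 18 h. On the X, 715 probe sets entered the test and 688 did not, because it was limited to the brighter 50% of all Ag. probe sets (mean signal of 69.6 units or more). Of the 715, 645 lay above background on all arrays. With limma, fitted to all 8442 tested probe sets, 0 of the 715 X probe sets had a Benjamini-Hochberg adjusted p under 0.05, and so did 0% of all tested. At an unadjusted p under 0.05 there were 5 on the X, or 0.699%, against 1.8% of all tested. Of these, 3 were higher (background 1.5%) and 2 lower (background 0.296%). Without the buffer array of replicate 1 there were 38, or 5.31%, against 7.32% of all tested. A block for the replicate number left limma with 0 calls on the X against 0.249% of all tested, of which 0.19% were higher and 0.0592% lower. The smallest adjusted p on the X in that fit was 0.109, and 62 X probe sets, or 8.67%, had an unadjusted p under 0.05 against 9.69% of all tested. At an unadjusted p the shares on the X were the lower ones in both fits, by margins that were not tested. In bulk tissue, fewer cells of a type and less RNA per cell cannot be told apart.

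Over all 4 arrays the median response was close on the X and on the autosomes. The median log2 change, CpG-ODN minus buffer, was −0.023 over the 715 X probe sets and −0.020 over 4716 autosomal ones. In replicate 1 it was 0.0024 on the X and −0.0029 on the autosomes, and in replicate 2 it was −0.057 and −0.029. Between probe sets the change had an SD of 0.201 on the X and 0.205 on the autosomes. Of the X probe sets, 46.0% had a change above 0, against 44.8% of the autosomal ones. The X minus autosomal median change of −0.0031 was not stable to single arrays: it was −0.078 without the CpG-ODN array of replicate 1, 0.056 without that of replicate 2, 0.042 without the buffer array of replicate 1 and −0.060 without that of replicate 2. Leaving out 1 array unbalances the replicate numbers between the groups. As a level, X minus autosomes had a mean of −0.0401 with CpG-ODN and −0.0403 with buffer.

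Separation of the treatment groups was also counted. On the X, 74 probe sets, or 10.3%, were higher with CpG-ODN on both arrays than on either buffer array, against 12.2% of all tested. Another 99, or 13.8%, were lower, against 13.3%. A mean change past 1.5-fold was seen in 11 X probe sets, 7 higher and 4 lower, which is 1.54% against 1.34% of all tested. A change of at least 1.5-fold in the same direction within both replicates was seen in 2 that were higher (background 0.367%) and 1 that was lower (background 0.107%). The 2 were Ag.X.1031.0_CDS_s_at and Ag.X.307.0_CDS_a_at, the latter with a log2 change of 0.75 in replicate 1 and 0.71 in replicate 2. The 1 that was lower was Ag.X.124.0_CDS_a_at.

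**Figure D3:**
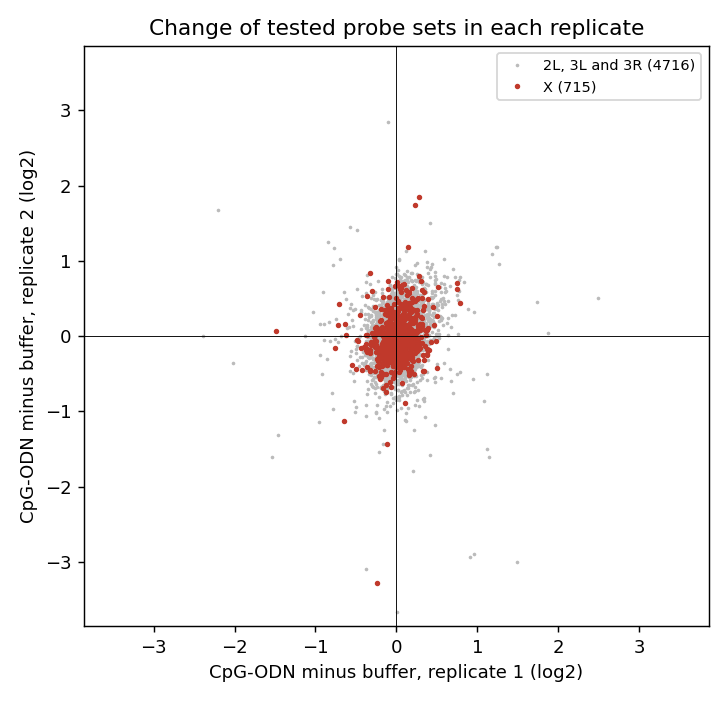
Log2 change with CpG-ODN in replicate 1 (horizontal axis) and replicate 2 (vertical axis) for tested probe sets. Grey points are 2L, 3L and 3R and red points are the X; most red points lie within the grey cloud, with medians of 0.0024 and −0.057 in replicates 1 and 2, and 1 red point lies far down at −3.28 in replicate 2.

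The probe sets named next had the smallest unadjusted p on the X in each direction among those past 1.5-fold whose arrays separated by treatment. None of the X probe sets that met this rule passed the adjusted test. Ag.X.1031.0_CDS_s_at had signals of 157 and 174 with CpG-ODN against 93.7 and 113 with buffer. Both CpG-ODN arrays were above both buffer arrays, and the log2 change was 0.69 (limma SE 0.16, adjusted p = 0.9999). Its ending marks probes that can bind several transcripts. Ag.X.1842.0_at had 372 and 346 with CpG-ODN against 260 and 219 with buffer. The change was 0.52 in replicate 1 and 0.66 in replicate 2, with a mean of 0.59 (limma SE 0.17, adjusted p = 0.9999). On the lower side, Ag.X.124.0_CDS_a_at had 372 and 422 with CpG-ODN against 584 and 921 with buffer. Its groups were separate, and the log2 change was −0.89 (limma SE 0.26, adjusted p = 0.9999). With the replicate block the limma adjusted p was 0.109, 0.202 and 0.109 for these 3.

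Several of the widest mean changes on the X came mainly from 1 array. Ag.X.1.0_CDS_at, chosen after its values were seen, had 2547 and 114 with CpG-ODN against 3016 and 1108 with buffer. Its change was −0.24 in replicate 1 and −3.28 in replicate 2, and the groups overlapped. The CpG-ODN array of replicate 2 alone stood far below the other 3. The widest change in the other direction belonged to a pair of probe sets of one ID stem. The first had 1560 and 1758 with CpG-ODN against 1285 and 489 with buffer, and the second had 2739 and 2590 against 2340 and 773. The groups did not overlap in either probe set. In both it was the buffer array of replicate 2 that lay low, and the change was 0.28 and 0.23 in replicate 1 against 1.85 and 1.74 in replicate 2.

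The X departed from the autosomes in the comparison of replicate 1 with replicate 2, which was added after the data were seen. Over the tested probe sets the median of replicate 1 minus replicate 2 was 0.10 log2 on the X and −0.0083 on the autosomes, a difference of 0.11. It was 0.12 on the X and −0.0024 on the autosomes among CpG-ODN arrays, and 0.057 and −0.015 among buffer arrays. The arms 2L, 3L, 3R and 2R lay between −0.023 and 0.0038, and the probe sets with the field UNKN, given no chromosome in the ID, at 0.069. X probe sets were brighter in replicate 1 in 64.8% of cases, against 48.8% on the autosomes and 60.7% for UNKN. With untested probe sets included, the median was 0.098 on the X, 0.097 for UNKN and 0.034 on the autosomes. Both replicate 1 arrays were above both replicate 2 arrays for 295 X probe sets, or 41.3%, against 29.4% of all tested. They were below them for 126, or 17.6%, against 29.2%. For tested UNKN probe sets these shares were 36.7% and 19.9%, so the lean to replicate 1 was not particular to the X.

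**Figure D4:**
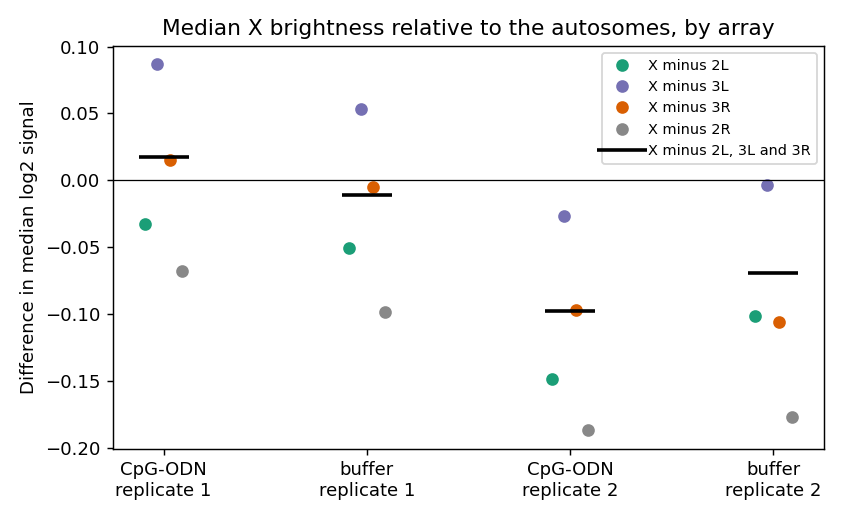
Median log2 signal of X probe sets minus that of each arm (points) and of 2L, 3L and 3R together (black bars), for each array. The vertical axis is in log2 units; the bars stand at 0.018 and −0.011 on the replicate 1 arrays and at −0.098 and −0.070 on the replicate 2 arrays.

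The X and the autosomes lay farthest apart among the brighter probe sets. All Ag. probe sets were sorted into 4 groups of equal size by mean log2 signal. In the brightest group the median of replicate 1 minus replicate 2 was 0.094 on the X (n = 359) and −0.011 on the autosomes (n = 2408). In the next brightest group it was 0.11 and −0.0063. UNKN probe sets shared the shift in the latter group, at 0.089, but stood at −0.0045 in the brightest. Among CpG-ODN arrays alone the median over tested UNKN probe sets was 0.12, the same as on the X to 2 decimals. The 2 dimmer groups differed less, since the autosomes moved as well: it was 0.076 against 0.060 in the second and 0.098 against 0.087 in the dimmest. Among the buffer arrays of these dimmer groups the X did not exceed the autosomes, at 0.013 against 0.018 and at 0.026 against 0.051. By ID class the tested X probe sets stood at 0.078 for CDS, 0.19 for UTR and 0.16 for neither, and the autosomal ones at −0.030, 0.058 and 0.088.

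**Figure D5:**
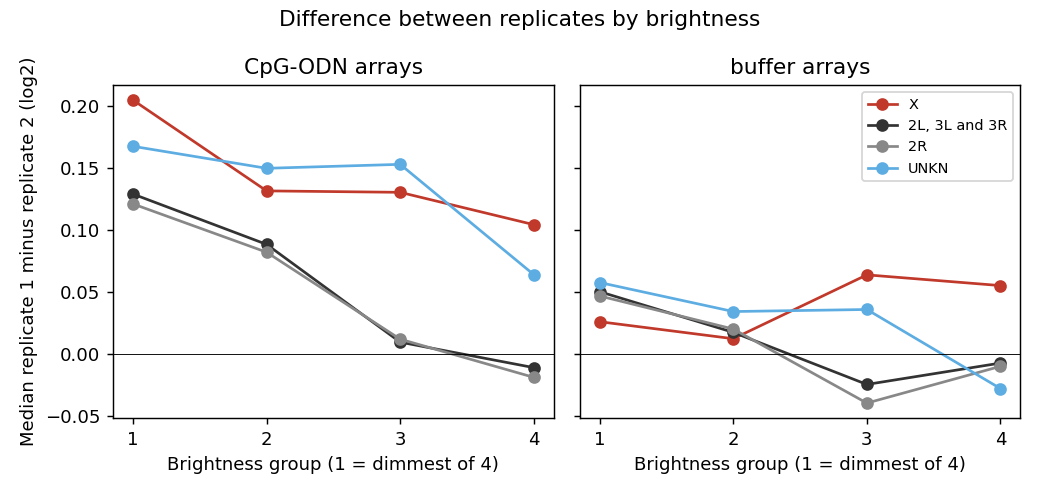
Median log2 difference between replicate 1 and replicate 2 (vertical axis) in 4 equal groups by brightness (horizontal axis, dimmest first), for CpG-ODN arrays on the left and buffer arrays on the right. In the brighter 2 groups the X line lies above those of the autosomes and 2R, while UNKN lies above the X in the second brightest group of the CpG-ODN arrays; the X and the autosomes stand apart, with 0.10 against −0.011 among CpG-ODN arrays and 0.055 against −0.0070 among buffer arrays in the brightest group.

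In the limma comparison of the replicates, 14 X probe sets were called brighter in replicate 1, or 1.96%, against 1.55% of all tested, and 5 were called dimmer, or 0.699%, against 1.78%. With the treatment as a block there were 51 brighter, or 7.13%, against 6.59%, and 22 dimmer, or 3.08%, against 5.98%. The share called dimmer was the lower one on the X in both fits, and the share called brighter the higher one, by margins that were not tested. The labels do not say what the replicate number stands for beyond separate experiments, so cohorts of mosquitoes and array processing cannot be told apart. Hybridisation controls, 9 probe sets for RNAs added with the labelled sample, were brighter in replicate 1 by 0.66 log2 among CpG-ODN arrays and by 0.67 among buffer arrays. The 24 background controls were brighter in replicate 1 as well, by 0.12 log2 among CpG-ODN arrays and by 0.20 among buffer arrays. Signal at the 3′ end of mosquito actin over that at its 5′ end, a measure of RNA integrity, was 1.84 in replicate 1 and 1.66 in replicate 2 among CpG-ODN arrays, and 1.80 and 1.23 among buffer arrays. For Gapdh it was 2.73 and 2.32 among CpG-ODN arrays against 3.00 and 2.32 among buffer arrays. The part of these in the shift of the X was not tested.

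The largest differences between replicates on the X were in single probe sets. Ag.X.1151.0_s_at had 734 and 816 units on the replicate 1 arrays with CpG-ODN and buffer, and 67.8 and 68.5 on the replicate 2 arrays. It was 11.4-fold brighter in replicate 1, with a limma adjusted p of 0.00139 for the replicate comparison, and it lay above background on all arrays. Its replicate 2 signals were near the background levels there, 53.2 units with CpG-ODN and 57.1 with buffer. The ending _s_at marks probes that can bind several transcripts. Ag.X.81.0_CDS_at had 144 and 403 in replicate 1 and 26.8 and 25.5 in replicate 2. Both replicate 2 signals lay under background, so it was at least 4.38-fold brighter in replicate 1 (limma adjusted p = 0.0354). Within replicate 1 its signal with buffer exceeded that with CpG-ODN, at a log2 change of −1.49. In the other direction, Ag.X.244.0_CDS_at had 53.7 and 44.7 in replicate 1, both under background, and 119 and 108 in replicate 2. It was at least 1.52-fold dimmer in replicate 1 (limma adjusted p = 0.0316). Ag.X.237.0_CDS_at had 61.8 and 70.7 in replicate 1 and 95.9 and 140 in replicate 2, with a limma adjusted p of 0.0816. At least a 2-fold difference in both treatments was seen in 8 X probe sets that were brighter in replicate 1 and 1 that was dimmer, or 1.12% and 0.140%. Over all tested probe sets the shares were 0.592% and 0.237%.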

How the data were processed

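RNA of 4 pools was hybridised to 4 single-channel arrays. The deposited unit is signal intensity, linear, in 1 table. MAS5 made the values, per the submitters' processing notes, with version, scaling target and annotation not given in the sources used here. The table's columns carry the sample accessions, and groups came from the titles. The members were set by ID alone, but the choice of this set and of the lists was made with earlier results of these data known.

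From these values log2 was taken with no pseudocount, keeping the deposited scaling. Tests used limma 3.58.1 in R 4.3.3 (lmFit, then eBayes with a trend on brightness), two-sided, over the upper 50% of Ag. probe sets by mean log2 signal, with 2 residual degrees of freedom and 2.91 prior ones, and with 1 and 6.11 under the replicate block. On simulated tables with no replicate effect, the fit without the block recovered most planted 4-fold changes, while the blocked fit recovered none in most tables. In these data same-numbered arrays deviated together, so the simulation does not show how many changes either fit would find here. Levels, shares and spreads were compared as descriptions. Means over arrays carry the SD, and the number of arrays limits the precision. MAS5 subtracts background per probe set, so low signals are noisy on the log scale. Where a group lay under background on both arrays, a fold is a bound against the background level.

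Named probe sets followed a rule: called ones first, then the smallest unadjusted p among those past 1.5-fold whose groups were separate, up to 2 per direction, plus the 5 brightest and the 2 farthest apart between replicates in each direction. Same-numbered arrays deviated together (correlation 0.664 over tested probe sets, 0.668 on the X), but the labels do not pair them, so the block is an alternative. Other alternatives were the scaling, the filter, the background level, the reference arms, ID classes and leaving out each array. The 937 probe sets with accession-like IDs were not used here.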

Additional observations from a re-analysis of the deposited data

How the results depend on the processing

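Limma called 0 X probe sets in all 19 alternatives tried: the scalings (quantile, median centring, cyclic loess), log2(signal + 64), each filter, no trend, a robust fit, a 2-fold minimum, each left-out array (range 0 to 0), and the replicate block alone (0) or with a scaling or no filter. The 2-fold minimum could only take calls away from a fit that had 0, so its result was fixed beforehand. With the block alone, limma called 0.249% of all tested probe sets. With both arrays of each group kept, the number on the X at an unadjusted p under 0.05 ran from 5 to 95. The 5, in the main fit, were 0.699% against 1.8% of all tested. The 95, with the block and no filter, were 6.77% against 7.12%. The 3 probe sets named for their change kept their direction in the 17 or 18 settings that tested them. In most of these settings that was fixed beforehand, since the 3 were chosen for groups that did not overlap. Leaving out an array or using log2(signal + 64) cannot turn such a change. The filters, the block, no trend and the robust fit left the change itself as it was. The scalings, alone or with the block, could have turned the direction, and it held there. The replicate comparison and the blocked fits with another scaling or no filter were chosen after seeing the data.

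The X minus autosomal median signal was 0.027 with 3L alone as reference, and −0.060 to −0.021 with an array left out. The difference in share above background moved most: −0.39 percentage points against 2L alone, 3.23 against 3L, 0.038 with 2R added, 1.69 without _s_at and _x_at, 0.176 with 1 probe set per stem, 0.058 with the 90th percentile of the controls, −1.14 with the brightest control, and 0.044 to 0.999 with an array left out. The difference in interquartile range was −0.20 against 3R alone and −0.16 to −0.12 with an array left out. The difference in median change was −0.028 within replicate 2 and −0.078 to 0.056 with an array left out, where replicate numbers are no longer balanced. The replicate shift of the X over the autosomes was 0.064 with no filter and 0.073 among buffer arrays, and 0.08 to 0.13 with an array left out. The causes were not tested. With 36.0% of X probe sets above background on no array, little can be said of the dim ones.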
